A study of Homo sapiens with 12 samples.

Results

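The genes described are 35 genes of the integrated stress response: 13 regulators and stress-induced genes, 8 enzymes of amino acid and one-carbon synthesis, and 14 cytosolic aminoacyl-tRNA synthetases. They were chosen by gene symbol. All 35 were among the 21207 genes measured, and 34 of them were among the 17767 genes that passed a filter on low values. The exception was NUPR1, a small stress-induced chromatin protein. Its values of 4.86 to 5.55 lay close to the floor of the scale at 4.86, and it had 0 to 6.59 recovered normalised counts per library.

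RNA was sequenced from the ovarian cancer cell line HEYA8, an established human line, to ask how colforsin daropate acts on high-grade serous ovarian cancer. Colforsin daropate is a soluble relative of forskolin, a plant compound that switches on adenylyl cyclase, the enzyme that makes cyclic AMP. Cells received vehicle or the drug at 1, 5 or 10 µM for 48 h, with 3 libraries in each of the 4 groups. Each library name also carries a number, 6, 8 or 11, which recurs in every group; what the number marks is not stated in the labels.

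When unfolded protein, lack of amino acids or lack of haem activates one of the eIF2 kinases, phosphorylated eIF2 slows most translation while the mRNA of the transcription factor ATF4 is translated better. ATF4 then switches on genes for amino acid uptake and synthesis, for charging tRNA and, with its partner CHOP, for feedback and cell death. Tumour cells use the same programme to withstand shortage of nutrients. RNA levels show the targets of this pathway; they do not show eIF2 phosphorylation or the amount of ATF4 protein.

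The deposited values are variance-stabilised by the authors and run close to a log2 scale for abundant genes, so a difference of 1 is close to a doubling there and understates the fold of low genes. Values from 10 up were rounded to 0.1. Recovered depth was 24.0 to 48.4 M reads (M, reads in units of 1000000) on genes per library. The 4 libraries of label number 6 stood apart: they had 24.0 to 34.7 M reads, against 37.0 to 48.4 M in numbers 8 and 11, and 40.5% to 41.4% of their reads fell on no feature, against 36.2% to 40.0%. The mesenchymal marker VIM (17 to 18.7) was abundant. Carcinoma markers were mixed: KRT8 (13.1 to 14.5), KRT18 (13.6 to 14.9), KRT7 (11.5 to 13.7) and PAX8 (12.5 to 13.6) were abundant. WT1 was low (6.89 to 7.73, 55 to 192 reads) and MUC16 was not among the genes measured. The epithelial marker EPCAM was near the floor with 5 to 11 reads. The leukocyte marker PTPRC had 0 to 13 reads, the monocyte marker CD14 0 to 3 and the hepatocyte marker ALB 0 to 17. The endothelial markers PECAM1 (5.57 to 7.39) and VWF (6.83 to 8.05) and the smooth muscle marker MYH11 (6.88 to 7.87) were low but above the floor.

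The genes differed together between label numbers. With dose single genes passed the test, and how many did depended on whether the fit took out the gap between numbers. Most of the 34 also shared the sign of a small difference at 1 µM against vehicle and at 10 against 1 µM. Against numbers 8 and 11, 29 of the 34 tested genes were lower in number 6 and 1 was higher, while 19.9% of all tested genes were lower and 19.1% higher (limma, adjusted p under 0.05, fit with dose and number). Its error is the spread of libraries within numbers, as number 6 is a single number. The dose counts in this paragraph are from fits of dose without number, which keep the gap between numbers in the error. Counts with the number as a block are given below. At 10 µM 1 of 34 rose and 0 fell, where 11.2% of all tested genes rose and 11.4% fell. At 5 µM 2 rose and 0 fell (7.67% and 7.44% of all genes), and at 1 µM 0 rose and 0 fell (1.18% and 0.613%), with 2 higher and 0 lower at an unadjusted p under 0.05 and 0 by voom on recovered reads. At that unadjusted threshold 2 were higher and 1 lower at 10 µM, and 2 and 0 at 5 µM. These counts turned on the libraries of number 6: without them, and without a block, 4 rose and 0 fell at 1 µM (6.75% and 5.48% of all genes), 6 rose and 5 fell at 5 µM (14% and 13.8%), and 5 rose and 8 fell at 10 µM (16.2% and 17.2%). Without the libraries of number 8, or those of number 11, 0 were called at any dose. Calls over all tested genes also dropped without number 8. There 347 rose and 252 fell at 10 µM, against 1982 and 2033 with every library kept. At 5 µM 81 rose and 56 fell, against 1362 and 1322. Counts of all genes without number 11 at these 2 doses are not given here. The counts of 0 are therefore not read as particular to the 34 genes. Over the 34 genes the median difference from vehicle was 0.08, 0.03 and -0.07 at 1, 5 and 10 µM, and over all tested genes it was 0.00 at each dose. The difference was positive in 25, 19 and 13 of the 34 genes and negative in 7, 13 and 20. Over all tested genes it was positive in 8736, 8619 and 8764 and negative in 8766, 8974 and 8871. These signs include genes that did not pass. In bulk RNA, fewer cells that express a gene and less RNA per cell cannot be told apart.

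**Figure D1:**
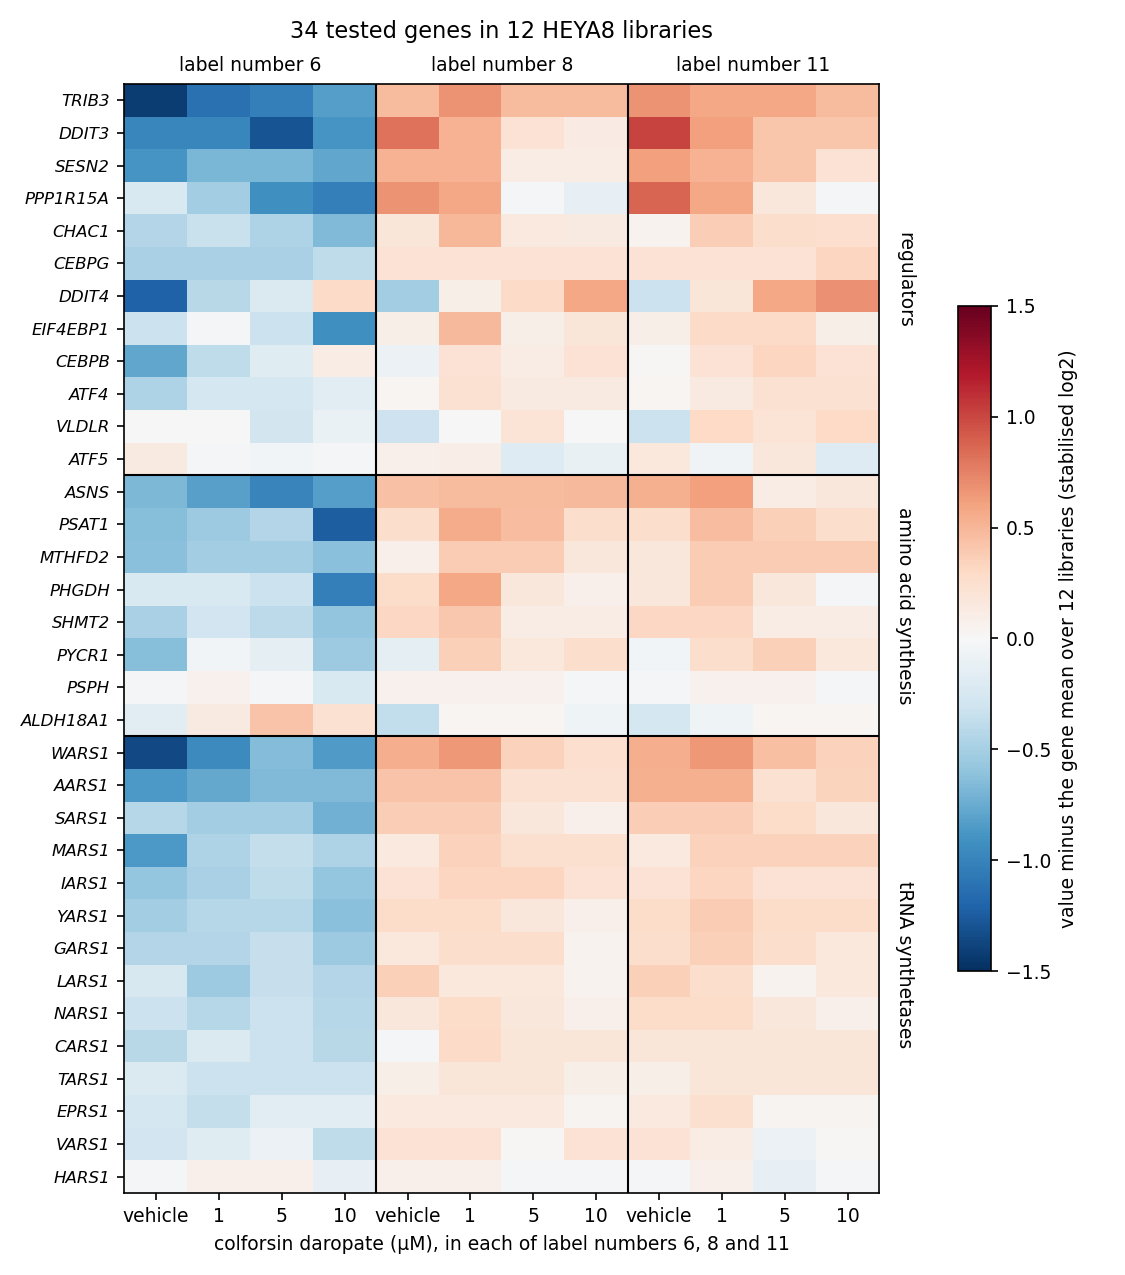
Each row is 1 of the 34 tested genes and each column 1 of the 12 libraries, ordered by dose (µM) within label numbers 6, 8 and 11; the colour is the value minus the gene's mean over all 12 libraries on the stabilised log2 scale. The 4 libraries of number 6 are blue in most rows, DDIT4 turns from blue to red with dose in each number, and PPP1R15A fades from red in numbers 8 and 11 and deepens in blue in number 6.

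The label numbers recur in each group and were taken to pair the libraries across doses. Each test was therefore also run with the number as a replicate block, which takes the gap between numbers out of the error. With the block 4 genes rose and 1 fell at 1 µM (6.76% and 5.26% of all genes), 6 rose and 3 fell at 5 µM (15.3% in each direction), and 5 rose and 5 fell at 10 µM (18.7% and 19.7%). The block added single genes in both directions, and these small counts are not read as particular to the 34 genes. Called higher with the block were ALDH18A1, MARS1, DDIT4 and PYCR1 at 1 µM, these with MTHFD2 and CEBPB at 5 µM, and DDIT4, ALDH18A1, ATF4, MARS1 and CEBPB at 10 µM. Called lower were PPP1R15A at every dose, LARS1 and DDIT3 at 5 and 10 µM, and SARS1 and PHGDH at 10 µM. The 3 dose comparisons share their vehicle libraries.

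DDIT4 was the one gene called at 10 µM in the fit without the block. It encodes REDD1, an inhibitor of mTORC1 that responds to several stresses, and lies on chromosome 10 (GRCh38, 72273920 to 72276036, plus strand). Over vehicle, 1, 5 and 10 µM its values were 12.5, 13.3, 13.5 and 14 in label number 6, 13.2, 13.8, 14 and 14.3 in number 8, and 13.4, 13.9, 14.3 and 14.4 in number 11. All 3 libraries at 10 µM lay above all 3 vehicle libraries, and in each number the value was higher at each higher dose. The mean was 18900 ± 2640 recovered normalised counts at 10 µM and 8430 ± 2530 in vehicle (SD, n = 3 each), a ratio of 2.24. DDIT4 rose by 1.20 ± 0.25 (SE) on the stabilised scale at 10 µM (limma adjusted p = 0.00589; with the replicate block 7.99e-07) and by 0.90 ± 0.25 at 5 µM (0.0343; with the block 1.1e-05). At 1 µM the difference of 0.63 did not pass without the block (0.253) and passed with it (6.42e-04). Without the 4 libraries of number 8 the difference at 10 µM was 1.25 with adjusted p = 0.128, and without those of number 11 it was 1.30 with adjusted p = 0.0504, both without the block. The call at 5 µM was lost when vehicle library 6 (0.0837) or 8 (0.0634) or the 5 µM library 8 (0.0966) or 11 (0.126) was left out, or all libraries of number 8 (0.295) or 11 (0.183).

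PPP1R15A encodes GADD34, the subunit that directs a phosphatase to eIF2 and so ends the response; it lies on chromosome 19 (48872392 to 48876057, plus strand). Its values over vehicle, 1, 5 and 10 µM were 12.5, 12.2, 11.8 and 11.7 in number 6, 13.4, 13.3, 12.7 and 12.6 in number 8, and 13.6, 13.3, 12.9 and 12.7 in number 11. Each number was lower at each higher dose, but the gap between number 6 and the others made the groups overlap: number 6 in vehicle lay below numbers 8 and 11 at 10 µM. Recovered counts averaged 5220 ± 1770 at 10 µM and 9410 ± 3380 in vehicle (SD, n = 3 each), a ratio of 0.555. The differences over the 3 doses were -0.23, -0.70 and -0.83 ± 0.40. Without the block these did not pass (limma adjusted p = 0.843, 0.286 and 0.166), and with it all 3 did (0.0249, 5e-06 and 8.68e-07). Paired by number, PPP1R15A at 10 µM differed from vehicle by -0.80, -0.80 and -0.90 for numbers 6, 8 and 11. DDIT4 and PPP1R15A, both stress-induced genes, thus differed from vehicle in opposite directions in 3 of 3 numbers at each dose.

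ATF4 (chromosome 22, 39519695 to 39522685, plus strand), the transcription factor at the centre of the pathway, had values of 14.2, 14.4, 14.4 and 14.5 over vehicle, 1, 5 and 10 µM in number 6, 14.7, 14.9, 14.8 and 14.8 in number 8, and 14.7, 14.8, 14.9 and 14.9 in number 11. Every treated library was above the vehicle library of its number, by 0.10 to 0.30. The difference at 10 µM was 0.20 ± 0.19 (limma adjusted p = 0.485; with the block 0.0243), and at 1 and 5 µM it was 0.17 and did not pass in either fit. ATF5, a relative of ATF4 that also responds to eIF2 phosphorylation, had values of 8.64, 8.49, 8.46 and 8.48 in number 6, 8.58, 8.61, 8.31 and 8.40 in number 8, and 8.67, 8.45, 8.68 and 8.31 in number 11. It passed at no dose in either fit (-0.23 at 10 µM, adjusted p = 0.135; with the block 0.0914).

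DDIT3 (chromosome 12, 57516588 to 57521737, minus strand) encodes CHOP, the factor of the response that is linked to cell death. Its values over vehicle, 1, 5 and 10 µM were 10.3, 10.3, 9.99 and 10.4 in number 6, 12.1, 11.8, 11.5 and 11.4 in number 8, and 12.3, 11.9, 11.7 and 11.7 in number 11. Number 6 lay below the other numbers at every dose, and at 10 µM it alone was above its vehicle library. The difference was -0.50 at 5 µM and -0.40 ± 0.62 at 10 µM (limma adjusted p = 0.655 and 0.696; with the block 0.00641 and 0.0172). When only numbers 8 and 11 were fitted, again blocked by number, it was -0.35, -0.60 and -0.65 at 1, 5 and 10 µM (adjusted p = 0.0174, 0.00153 and 9.31e-04). CEBPB, a bZIP factor that pairs with ATF4, ran from 11.1 in vehicle through 11.5 and 11.7 to 12 at 10 µM in number 6. In numbers 8 and 11 it was 11.8 and 11.9 in vehicle and 12 to 12.2 at the 3 doses. Its difference at 10 µM was 0.47 ± 0.21 (adjusted p = 0.146; with the block 0.00503).

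ALDH18A1, which makes the proline precursor pyrroline-5-carboxylate, was the other gene called without the block; it lies on chromosome 10 (95605929 to 95656706, minus strand). It had values of 12.1, 12.4, 12.7 and 12.5 in number 6, 11.9, 12.3, 12.3 and 12.2 in number 8, and 12, 12.2, 12.3 and 12.3 in number 11. All 9 treated libraries lay above all 3 vehicle libraries. It rose by 0.43 ± 0.12 at 5 µM (limma adjusted p = 0.0294; with the block 5.06e-04), while the differences of 0.30 at 1 µM and 0.33 at 10 µM passed with the block (0.0147 and 0.00219) and not without it (0.242 and 0.0638). Its call at 5 µM was lost without vehicle library 8 (0.109) or 11 (0.0786), the 5 µM library 6 (0.0944), or all of number 8 (0.239) or 11 (0.196). PYCR1, the next enzyme of proline synthesis, was higher than vehicle in 3 of 3 numbers at each dose. Its differences were 0.47, 0.40 and 0.23 (adjusted p = 0.339, 0.265 and 0.493; with the block 0.00643, 0.00547 and 0.0597).

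**Figure D2:**
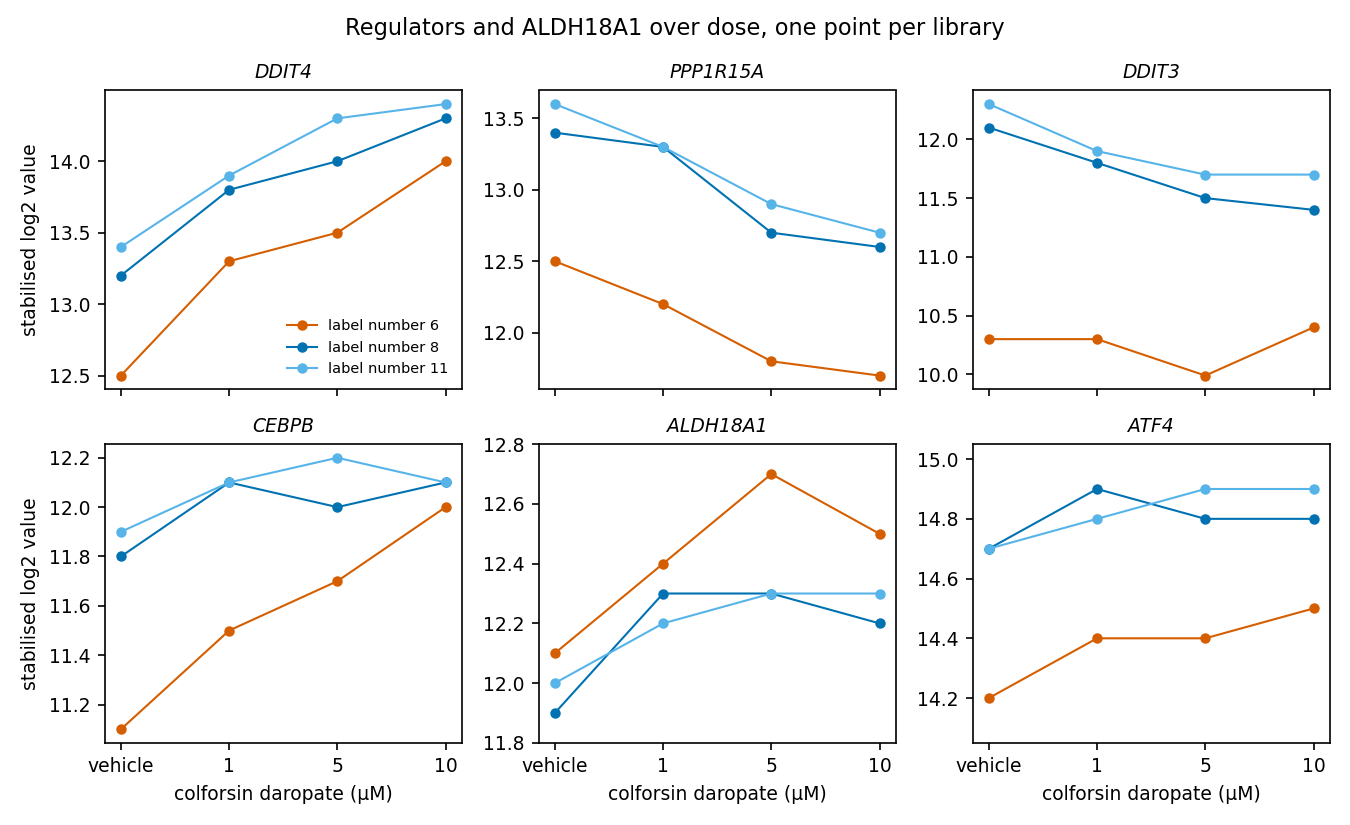
The y axis is the stabilised log2 value, the x axis the dose (µM), and each line joins the 4 libraries of 1 label number. DDIT4 climbs and PPP1R15A descends along all 3 lines; ALDH18A1 is the one gene here with number 6 at the top.

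The doses were also compared with each other. At 10 µM against 1 µM 0 of the 34 genes rose and 0 fell (2.17% and 2.54% of all genes), and with the block 1 rose and 6 fell (9.46% and 11.4%). The median difference of the 34 was -0.13, with 28 negative and 6 positive. All 14 tRNA synthetases were negative, from -0.23 to -0.03, and their median of -0.10 is as small as the rounding step of 0.1. Of all tested genes 8777 were negative and 8714 positive. At 5 µM against 1 µM 0 rose and 0 fell (0.191% and 0.118% of all genes), and with the block 0 rose and 1 fell (2.51% and 2.68%). At 10 µM against 5 µM 0 of the 34 were called in either fit, as for 0% of all genes in the fit without the block and, with it, 0% higher and 0.00563% lower. At an unadjusted p under 0.05, without the block, 1 of the 34 was higher and 1 lower at 10 against 1 µM, and 0 in the other 2 comparisons; voom without the block also called 0 in all 3. An F test over the 4 dose groups called 1 of the 34 genes, DDIT4 (limma adjusted p = 0.0306), and 14.8% of all genes; with the block it called 11 of 34 and 33.7%. Without the block it called 13 when number 6 was left out, and 0 without vehicle library 6 or 8, the 5 µM library 8, the 10 µM library 8 or 11, or all of number 8 or 11. The share of all genes in these left-out F tests is not given here, so these counts are not read as particular to the 34 genes. A slope over dose rank was positive for 1, again DDIT4 (0.39 per rank, adjusted p = 0.00234), and negative for 0, against 13% and 13.5% of all genes. With the block 3 slopes were positive and 7 negative, against 18.7% and 19.9%.

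For most of the genes the spread went more with the label number than with dose. The gap was tested as number 6 against numbers 8 and 11, a contrast chosen after the values had been seen. Number 6 is a single label number. The SE and adjusted p of this contrast, here and below, therefore measure the spread of libraries within numbers, not the spread between numbers. The spread between label numbers exceeded that between doses in 28 of 34 genes (82.4%), against 39.9% of all tested genes. All 4 libraries of number 6 lay below all 8 others in 25 of the 34 genes and above them in 0, while this held for 4.9% and 4.26% of all tested genes. The median of the 34 genes, taken in each library as the deviation from each gene's mean, was -0.34 to -0.54 in the libraries of number 6 and 0.13 to 0.30 in the others. Between numbers 8 and 11, 0 of the 34 genes passed, as for 0% of all genes, and 2 of the 34 were lower and 0 higher in number 8 at an unadjusted p under 0.05. The contrast between number 6 and the others gave 28 to 30 lower genes in each of the other scalings, filters and left-out libraries or dose groups tried. The lower depth of number 6 and its larger share of reads on no feature moved with the gap, and their part in it was not tested.

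**Figure D3:**
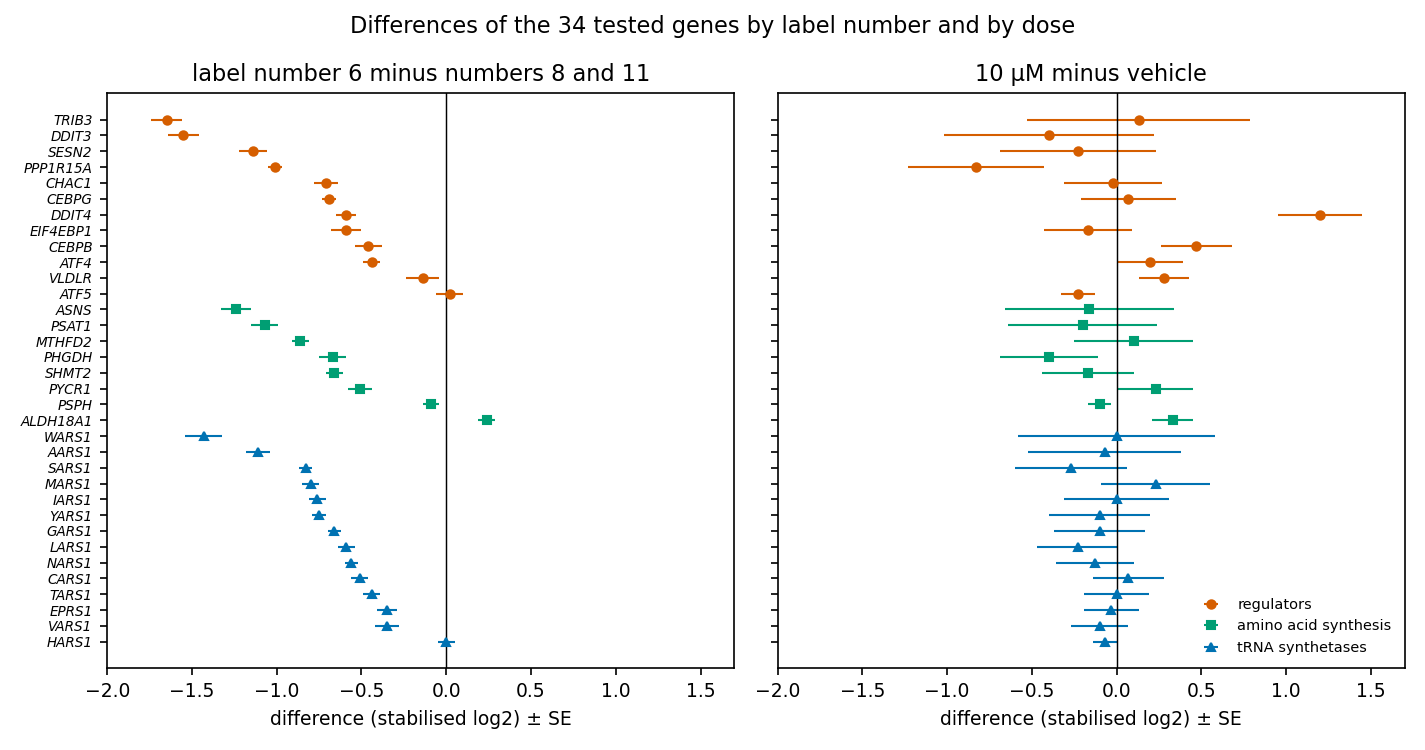
Left is the difference of label number 6 from numbers 8 and 11, and right that of 10 µM from vehicle. Points are the fitted differences (stabilised log2) and bars 1 SE. The SE on the left measures the spread of libraries within numbers, not between numbers. On the left 29 of 34 genes are called lower and ALDH18A1 higher; on the right DDIT4 at 1.20 is the one gene called, and that fit keeps the gap between numbers in its error.

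Of 12 tested regulators and stress-induced genes, 10 were lower in number 6, with a median of -0.64. TRIB3 (chromosome 20, 362835 to 397559, plus strand), a pseudokinase that restrains ATF4, showed the largest difference of the list. It had values of 11.6, 11.9, 12 and 12.2 over vehicle, 1, 5 and 10 µM in number 6, 13.5, 13.7, 13.5 and 13.5 in number 8, and 13.7, 13.6, 13.6 and 13.5 in number 11. The 2 sets of libraries were apart by more than 1 at every dose, and the difference was -1.65 ± 0.09 (limma adjusted p = 1.97e-07). DDIT3 followed with -1.55 ± 0.09, and its mean recovered count in number 6 was 0.326 of that in numbers 8 and 11. SESN2, which signals lack of leucine to mTORC1, had values of 11, 11.2, 11.2 and 11.1 in number 6, 12.4, 12.4, 12 and 12 in number 8, and 12.5, 12.4, 12.3 and 12.1 in number 11, a difference of -1.14 ± 0.08 (8.15e-07). Fitted on numbers 8 and 11 only and blocked by number, SESN2 fell by 0.30 at 5 µM and 0.40 at 10 µM (adjusted p = 0.032 and 0.0113).

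CHAC1, which breaks down glutathione, had values of 8.54, 8.65, 8.52 and 8.32 over vehicle, 1, 5 and 10 µM in number 6, 9.17, 9.48, 9.13 and 9.12 in number 8, and 9.04, 9.35, 9.25 and 9.24 in number 11. Its level followed the number (-0.71 ± 0.07, limma adjusted p = 1.11e-05), and its difference at 10 µM was -0.02 ± 0.29 (adjusted p = 0.975). PPP1R15A (-1.01), CEBPG, another bZIP partner of ATF4 (-0.69), DDIT4 (-0.59), EIF4EBP1, a repressor of cap-dependent translation (-0.59), CEBPB (-0.46) and ATF4 itself (-0.44 ± 0.05, adjusted p = 3.04e-05) were also lower. CEBPG had 11.3 to 11.4 in number 6 and 12 to 12.1 in the others, and EIF4EBP1 had 10.9 to 11.8 in number 6 and 11.9 to 12.3 in the others, so both were apart. VLDLR, a lipoprotein receptor (-0.14), and ATF5 (0.02) did not pass. DDIT4 was lower in number 6, yet number 6 at 10 µM (14) lay above numbers 8 and 11 in vehicle (13.2 and 13.4).

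Of the 8 enzymes of amino acid and one-carbon synthesis, 6 were lower in number 6, ALDH18A1 was higher (0.24 ± 0.05, limma adjusted p = 0.00342) and PSPH, the last enzyme of serine synthesis, did not pass (-0.09). ASNS, which makes asparagine, had values of 7.41, 7.27, 7.09 and 7.25 over vehicle, 1, 5 and 10 µM in number 6, 8.52, 8.55, 8.56 and 8.57 in number 8, and 8.61, 8.70, 8.19 and 8.25 in number 11. It was lower in number 6 by 1.24 ± 0.09 on the stabilised scale (-1.24, adjusted p = 1.11e-06). ASNS (chromosome 7, 97852118 to 97872542, minus strand) shares 1985 of its exonic bases, 44.6%, with AC079781.5 on the same strand in GENCODE 29, and between 2.40% and 2.94% of all reads were set aside as ambiguous; how many of them came from ASNS is not known.

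PSAT1, the second enzyme of serine synthesis, had values of 12.7, 12.8, 12.9 and 12.1 over vehicle, 1, 5 and 10 µM in number 6, 13.6, 13.9, 13.8 and 13.6 in number 8, and 13.6, 13.8, 13.7 and 13.6 in number 11. PHGDH, the first enzyme of the same route, had values of 11.9, 11.9, 11.8 and 11.1 in number 6, 12.4, 12.7, 12.3 and 12.2 in number 8, and 12.3, 12.5, 12.3 and 12.1 in number 11. Both were lowest in number 6 at 10 µM. Their differences between number 6 and the others were -1.07 and -0.67, and at 10 µM against vehicle they were -0.20 ± 0.44 and -0.40 ± 0.29 (limma adjusted p = 0.790 and 0.356; with the block 0.177 and 0.01). The mitochondrial one-carbon enzymes MTHFD2 (-0.86) and SHMT2 (-0.66) and the proline enzyme PYCR1 (-0.51) completed the 6. MTHFD2 had 13.2 to 13.3 in number 6 and 13.9 to 14.2 in the others, and SHMT2 had 12.7 to 13 in number 6 and 13.4 to 13.7 in the others. PYCR1 overlapped, with 10.2 to 10.8 in number 6 and 10.7 to 11.2 in the others.

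Of the 14 tRNA synthetases, which load each tRNA with its amino acid, 13 were lower in number 6 (median -0.63), and all 4 libraries of number 6 lay below all 8 others in 12 of them. In the fit of all 12 libraries without the block, 0 of the 14 were called at any dose. Without the libraries of number 6, again unblocked, AARS1 and LARS1 were called lower at 5 µM, and SARS1, AARS1, LARS1 and WARS1 at 10 µM. Over all 12 libraries the differences of the 14 from vehicle ran from -0.20 to 0.27 at 1 and at 5 µM and from -0.27 to 0.23 at 10 µM. Without the block, voom on recovered reads also called 0 at each dose, and 0 had an unadjusted p under 0.05 by limma. Both of these fits keep the gap between numbers in the error. Voom with the block called LARS1 at 1 µM, LARS1 and MARS1 at 5 µM, and SARS1, LARS1 and MARS1 at 10 µM. WARS1, for tryptophan (chromosome 14, 100333788 to 100376805, minus strand), had values of 11.9, 12.3, 12.6 and 12.4 over vehicle, 1, 5 and 10 µM in number 6, 13.8, 13.9, 13.6 and 13.5 in number 8, and 13.8, 13.9, 13.7 and 13.6 in number 11. It showed the largest gap of the synthetases (-1.43 ± 0.11, limma adjusted p = 2.01e-06).

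AARS1, for alanine, had values of 12.9, 13, 13.1 and 13.1 over vehicle, 1, 5 and 10 µM in number 6, 14.2, 14.2, 14 and 14 in number 8, and 14.3, 14.3, 14 and 14.1 in number 11 (number 6 against the others -1.11 ± 0.07). GARS1, for glycine, had values of 13.6, 13.6, 13.7 and 13.5 in number 6, 14.2, 14.3, 14.3 and 14.1 in number 8, and 14.3, 14.4, 14.3 and 14.2 in number 11 (-0.66 ± 0.04). In both genes the 2 sets of libraries were apart at every dose, while the doses within a number lay within 0.30 of each other. The synthetases for serine (SARS1, -0.83), methionine (MARS1, -0.80), isoleucine (IARS1, -0.76), tyrosine (YARS1, -0.75), leucine (LARS1, -0.59), asparagine (NARS1, -0.56), cysteine (CARS1, -0.51) and threonine (TARS1, -0.44), the bifunctional one for glutamate and proline (EPRS1, -0.35) and that for valine (VARS1, -0.35) were lower too. SARS1 had 13.1 to 13.4 in number 6 and 13.9 to 14.2 in the others, and IARS1 had 14.4 to 14.6 in number 6 and 15.2 to 15.3 in the others, so neither set overlapped. VARS1, at 11.1 to 11.4 in number 6 and 11.4 to 11.7 in the others, was the one called synthetase whose sets met. HARS1, for histidine, was the exception, at 11.5 to 11.7 in every library and with a difference of 0.00 ± 0.05. With the block, SARS1 (-0.27, limma adjusted p = 0.00278) and LARS1 (-0.23, 0.0206) were called lower and MARS1 (0.23, 0.0215) higher at 10 µM.

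**Figure D4:**
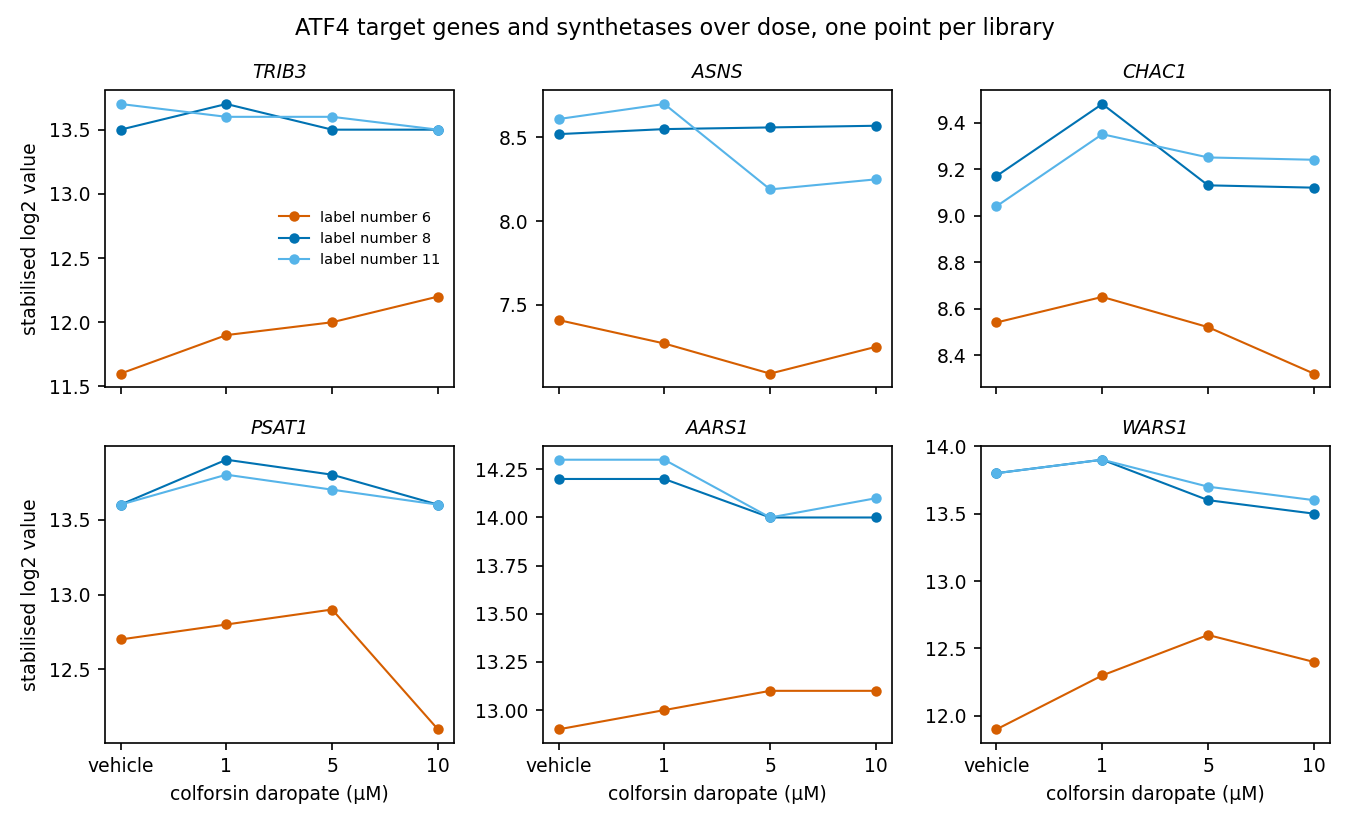
The y axis is the stabilised log2 value, the x axis the dose (µM), and each line joins the 4 libraries of 1 label number. Number 6 lies below numbers 8 and 11 at every dose in all 6 genes; in number 6 TRIB3 climbs with dose, WARS1 peaks at 12.6 at 5 µM and PSAT1 drops to 12.1 at 10 µM.

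The dose difference in number 6 was also set against that in numbers 8 and 11, a contrast added after the values had been seen. Number 6 has 1 library per dose and 1 in vehicle, so the spread comes from numbers 8 and 11 alone and number 6 is assumed to vary like them. The test called 0 of the 34 genes at 1 µM (0% of all genes), 1 higher and 0 lower at 5 µM (0.659% and 1.14% of all genes), and 3 higher and 1 lower at 10 µM (1.65% and 3.27%). They were WARS1 at 5 and 10 µM, and TRIB3, CEBPB and PSAT1 at 10 µM. A blocked fit of numbers 8 and 11 only called 8 genes higher and 1 lower at 1 µM (7.99% and 6.5% of all genes), 6 and 7 at 5 µM (14.9% and 14.8%), and 6 and 10 at 10 µM (17.2% and 18.2%). The 10 that fell at 10 µM were PPP1R15A, DDIT3, SESN2, PHGDH, SHMT2, AARS1, SARS1, WARS1, LARS1 and NARS1, and their differences ran from -0.85 to -0.15. The 6 that rose were DDIT4 (1.05), VLDLR (0.46), ALDH18A1 (0.30), PYCR1 (0.30), CEBPB (0.25) and MARS1 (0.15). The smallest lie near the rounding step of 0.1: in numbers 8 and 11 MARS1 differed from vehicle by 0.1 and 0.2, and NARS1 by -0.1 and -0.2. The median of the 34 genes was -0.07, against 0.00 over all tested genes.

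Promoters of 6 genes are shown because they hold the best known DNA element of the pathway, or belong to the genes that moved with dose. RefSeq promoter windows (GRCh38.p14) were found for 27 of the 35 genes, and the 250 bases before each start were searched on both strands. TGATGNAA, the core of the C/EBP-ATF response element that ATF4 binds with a C/EBP partner, was found in 6 of 27 genes (22.2%) and in 3.89% of 27305 genes with a window, each gene counted once over its listed starts. The 6 were CHAC1, ASNS, AARS1, IARS1, CEBPG and GARS1, the last 2 at their second start. The 35 genes were chosen as genes of this pathway, so the higher share is not independent of that choice. TGACGTCA, the cAMP response element, was found in 1 of 27 (3.7%), PPP1R15A, and in 2.03% of all genes. The 2 motifs were counted apart and share no match here. Each sequence below runs 5′ to 3′ on the gene's strand up to the base before the start, and capitals mark the match; in CHAC1, AARS1 and IARS1 the match is on the opposite strand. DDIT4 held neither.
CHAC1 (chr15:40953221-40953470, plus): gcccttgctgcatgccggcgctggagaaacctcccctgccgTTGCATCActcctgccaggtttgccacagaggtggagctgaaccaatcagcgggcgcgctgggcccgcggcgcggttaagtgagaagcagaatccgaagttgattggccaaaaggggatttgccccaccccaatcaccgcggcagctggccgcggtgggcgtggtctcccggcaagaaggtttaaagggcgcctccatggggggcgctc
ASNS (chr7:97872409-97872658, minus): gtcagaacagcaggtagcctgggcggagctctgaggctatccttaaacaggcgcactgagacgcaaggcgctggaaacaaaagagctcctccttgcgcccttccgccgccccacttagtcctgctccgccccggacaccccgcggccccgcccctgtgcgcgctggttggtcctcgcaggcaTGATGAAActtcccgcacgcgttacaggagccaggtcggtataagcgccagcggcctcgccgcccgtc
AARS1 (chr16:70289507-70289756, minus): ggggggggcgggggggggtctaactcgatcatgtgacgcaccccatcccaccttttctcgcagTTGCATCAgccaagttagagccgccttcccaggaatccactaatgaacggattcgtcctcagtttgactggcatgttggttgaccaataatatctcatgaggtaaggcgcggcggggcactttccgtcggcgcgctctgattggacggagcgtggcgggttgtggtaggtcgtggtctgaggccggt
IARS1 (chr9:92293698-92293817, minus, last 120 bases): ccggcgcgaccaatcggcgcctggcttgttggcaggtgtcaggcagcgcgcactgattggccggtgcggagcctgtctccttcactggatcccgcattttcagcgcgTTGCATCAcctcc
PPP1R15A (chr19:48872171-48872420, plus): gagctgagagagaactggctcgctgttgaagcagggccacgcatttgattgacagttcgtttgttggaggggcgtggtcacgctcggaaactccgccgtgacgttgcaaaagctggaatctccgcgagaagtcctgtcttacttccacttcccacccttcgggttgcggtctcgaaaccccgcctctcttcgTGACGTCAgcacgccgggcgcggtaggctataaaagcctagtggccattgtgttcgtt
DDIT4 (chr10:72273674-72273923, plus): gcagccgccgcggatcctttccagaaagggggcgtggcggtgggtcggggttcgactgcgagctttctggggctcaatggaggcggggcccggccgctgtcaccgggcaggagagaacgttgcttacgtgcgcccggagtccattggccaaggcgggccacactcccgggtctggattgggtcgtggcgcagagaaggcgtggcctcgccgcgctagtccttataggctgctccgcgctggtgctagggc

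The 6 genes with the C/EBP-ATF core all lay lower in number 6, by 0.66 (GARS1) to 1.24 (ASNS). So did 23 other genes, which had no match or no window, and HARS1, ATF5 and VLDLR, which did not pass, had no match. A match of letters is a description and does not show that a factor binds there.

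The wider pathway was read from lists of related genes. Of 29 tested other ATF4 or CHOP targets, 24 were lower in number 6 and 0 higher (median -0.56), so these targets followed the number as well. Their median difference from vehicle was 0.23, 0.27 and 0.21 at 1, 5 and 10 µM, against 0.00 over all tested genes. The difference was positive in 23, 19 and 20 of the 29 and negative in 6, 10 and 9. At 10 µM 4 of the 29 rose and 2 fell, against 11.2% and 11.4% of all tested genes, and with the block 12 rose and 5 fell, against 18.7% and 19.7%. With the block 10 rose and 1 fell at 1 µM (6.76% and 5.26% of all genes). At 5 µM 13 rose and 4 fell with the block (15.3% in each direction). VEGFA, an angiogenic growth factor, had values of 14.8, 14.6 and 14.7 at 10 µM and 13.2, 12.6 and 12.6 in vehicle for numbers 6, 8 and 11 (1.90 ± 0.17, limma adjusted p = 3.25e-05). SLC7A11, the cystine importer, had 14.8, 15.1 and 15 at 10 µM and 11.9, 13 and 13.2 in vehicle (2.27 ± 0.38, 0.00167). STC2, a secreted glycoprotein, rose by 0.93 and ERO1A, an oxidase of the endoplasmic reticulum, fell by 0.80. SLC3A2, the heavy chain that partners SLC7A11, did not pass without the block (0.77, adjusted p = 0.109; with the block 2.77e-05).

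Upstream of ATF4, 5 of 18 genes of the eIF2 kinases and the eIF2 and eIF2B complexes were lower in number 6 and 1 was higher (median -0.03). At 10 µM 2 of the 18 rose and 4 fell (11.2% and 11.4% of all genes), and with the block 4 rose and 4 fell (18.7% and 19.7%). EIF2S3, the gamma subunit of eIF2, fell by 0.70 and EIF2B1, a subunit of its exchange factor, by 0.30. DNAJC3, an inhibitor of eIF2 kinases, rose by 0.43 and EIF2AK3, which encodes the kinase PERK, by 0.40 (limma adjusted p = 0.0104). EIF2B4 had 0.20 (adjusted p = 0.0660; with the block 0.0347).

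Of the remaining 9 cytosolic synthetase and scaffold genes, 5 were lower in number 6 and 0 higher (median -0.11). Of the 17 mitochondrial synthetases 5 were lower and 1 was higher (median -0.10). At 10 µM, where 11.2% of all genes rose and 11.4% fell, 0 genes of either list rose. Called lower were 3 of 9 cytosolic genes (among them FARSB by 0.57 and QARS1 by 0.27) and 6 of 17 mitochondrial genes (among them WARS2 by 0.32, NARS2 by 0.59, CARS2 by 0.43 and IARS2 by 0.27). The scaffold protein AIMP2 had 0.30 (limma adjusted p = 0.194; with the block 0.00192) and VARS2 -0.29 (0.214; with the block 0.124). With the block 1 rose and 5 fell of the cytosolic genes and 0 rose and 8 fell of the mitochondrial ones, against 18.7% and 19.7% of all genes.

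Of 14 other genes of serine, glycine, folate, proline and asparagine metabolism, 2 were lower and 4 higher in number 6 (median -0.04). At 10 µM 2 of the 14 rose and 1 fell (11.2% and 11.4% of all genes). ALDH4A1, which breaks proline down, rose by 0.44, and MTHFD1, the cytosolic counterpart of MTHFD2, fell by 0.90. GLUL, glutamine synthetase, had -0.50 (limma adjusted p = 0.267; with the block 0.00611). Of 14 targets of ATF6 and XBP1, the other branches of the response to unfolded protein, 6 were lower and 3 higher in number 6 (median -0.07), and 6 rose and 0 fell at 10 µM (11.2% and 11.4% of all genes), with 9 and 1 under the block (18.7% and 19.7%). DNAJB11 rose by 0.43, PDIA4 by 0.33, CRELD2 by 0.39 and CALR by 0.30, all of them chaperones or folding factors. HYOU1 had 0.60 (adjusted p = 0.114; with the block 9.09e-04). Of 4 genes of tRNA export and other C/EBP factors 2 were lower and 1 higher in number 6 (median -0.16), and 0 passed at 10 µM, where CEBPD had 0.66 (adjusted p = 0.105; with the block 8.07e-05).

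**Figure D5:**
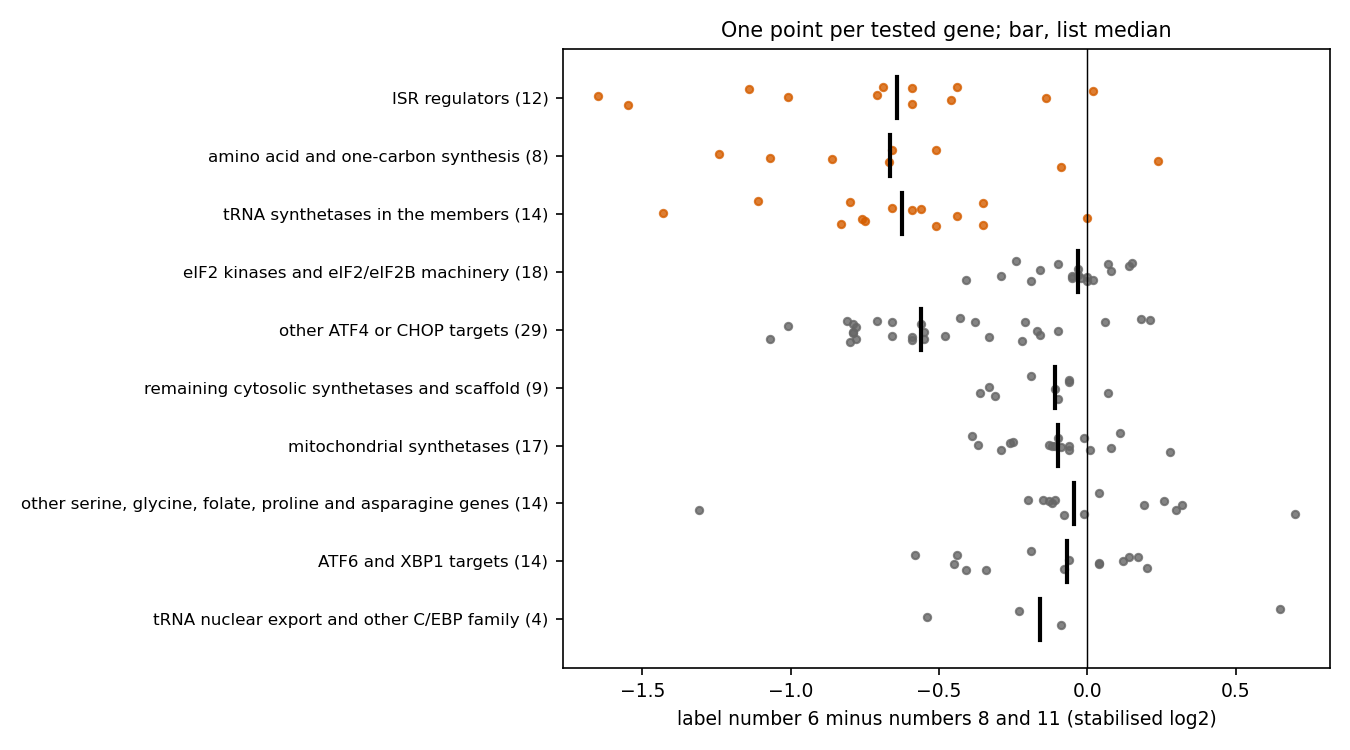
Each point is the difference of label number 6 from numbers 8 and 11 for 1 tested gene (stabilised log2) and the bar is the list median; the number of tested genes stands beside each list. The 3 lists of the 35 genes (orange) have medians of -0.63 to -0.67 and the other ATF4 or CHOP targets -0.56, while the remaining lists lie between -0.16 and -0.03.

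Some values carry limits from overlapping genes, since the strand setting of the counting was not given. DDIT3 and MARS1 overlap each other on opposite strands over 355 exonic bases, and DDIT4 shares 847 exonic bases with an antisense gene, DDIT4-AS1. CEBPB (231 bases) and VLDLR (738 bases) overlap antisense genes as well, and ATF5 shares 626 bases with NUP62 on the opposite strand.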

How the data were processed

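RNA of 12 HEYA8 libraries was analysed in 4 dose groups of 3, taken from the labels, and the series' design text names the 3 libraries of each dose as biological replicates. The authors deposited variance-stabilised values on a log2 scale, in 1 table whose 12 columns were each matched to a library by name. Per the submitters' processing notes, DESeq2 was used and the build was GRCh38 (hg38). Neither the aligner nor the counter, its use of strand or the annotation release is given in the sources used here. Ribosomal RNA was depleted from total RNA, per the labels' protocols. Of 21211 entries, 4 named no gene (no feature, ambiguous, not aligned, not unique) and stayed out of every test. Genes took 33.9% to 36.7% of all reads. Symbols were found for 21166 of 21207 genes (99.81%).

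Reads were recovered from low values, where single reads make steps: 100% of 69228 values under 6.2 matched a whole number within 0.0075, against 38.7% with another library's depth. A gene was tested where 3 or more libraries had a value over 1 higher than the floor (4.863). The main test was limma 3.58.1 (R 4.3.3) on the deposited values of all 12 libraries with a variance trend, two-sided, with Benjamini-Hochberg adjustment over 17767 genes and a threshold of 0.05. It was checked on simulated data. Alternatives were the replicate block, other filters and scalings, 2 groups only, no variance trend, array weights, libraries left out and voom on recovered reads. Same-numbered libraries deviated together from their group means (Pearson r over genes 0.316 to 0.777 for each pair; different numbers -0.711 to 0.569), so the numbers were taken to pair the libraries; the pairing comes from the data and the recurring number. The contrast between numbers and its interaction with dose were added after the data were seen, as were the voom fits. Values in every library are given for 13 named genes and any gene past the threshold at 10 µM or in the F test; from each related list, up to 4 genes past the threshold at 10 µM with the smallest p and the 1 with the largest difference that did not pass. Some genes that this rule names are not reported here. Genes named beyond this rule, such as PPP1R15A, CEBPB and ALDH18A1, were chosen after their values were seen. The genes and lists were chosen with earlier results of these data known. Positions are from GENCODE 29 (GRCh38).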

Additional observations from a re-analysis of the deposited data

Results flagged for a closer look

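For 4 of the genes the difference from vehicle in label number 6 departed from that in numbers 8 and 11 by limma's test of the difference itself, in which the spread comes from numbers 8 and 11. For WARS1 the departure was 0.85 at 5 µM (adjusted p = 0.0208) and 0.75 at 10 µM (0.0131): in number 6 its difference from vehicle was 0.70 and 0.50, in number 8 -0.20 and -0.30, and in number 11 -0.10 and -0.20. For TRIB3 it was 0.70 at 10 µM (adjusted p = 0.0354), with 0.60 in number 6, 0.00 in number 8 and -0.20 in number 11. For CEBPB it was 0.65 at 10 µM (adjusted p = 0.0358), with 0.90 in number 6, 0.30 in number 8 and 0.20 in number 11. For PSAT1 it was -0.60 at 10 µM (adjusted p = 0.0225), with -0.60 in number 6 and 0.00 in both others. Each value for number 6 rests on 1 library per dose, and all of its differences share 1 vehicle library, the shallowest of the 12.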

How the results depend on the processing

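Counts below are of the 34 tested genes. With the replicate block, which rests on the pairing by label number, the counts were 4 higher and 1 lower at 1 µM, 6 and 3 at 5 µM, 5 and 5 at 10 µM, 1 lower at 5 against 1 µM, 1 higher and 6 lower at 10 against 1 µM, 11 in the F test and 3 and 7 in the slope. Voom on recovered reads with the block gave 3 and 2, 6 and 3, 5 and 7, then 1 lower, 1 and 6, 10, and 4 and 7. Numbers 8 and 11 alone with the block gave 8 and 1, 6 and 7, 6 and 10, then 5 lower, 1 and 11, 12, and 3 and 8. Array weights gave 4 higher at 1 µM, 4 and 2 at 5 µM, 3 and 1 at 10 µM, 1 higher at 10 against 1 µM, 5 in the F test and 4 and 4 in the slope. With 2 groups only, 0 were higher at 5 µM, and a median shift gave 2 positive slopes. Without a dose term 28 genes were lower and 0 higher in number 6. The cause of these shifts was not tested.

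Leaving out single libraries or all 4 of a label number, without the block, gave 0 to 4 higher and 0 lower at 1 µM, 0 to 6 and 0 to 5 at 5 µM, 0 to 5 and 0 to 8 at 10 µM, 0 and 0 to 2 at 5 against 1 µM, 0 to 1 and 0 to 7 at 10 against 1 µM, 0 to 13 in the F test, 1 to 3 and 0 to 8 in the slope, and 29 to 30 lower and 1 higher in number 6; the highest counts at 5 and 10 µM came without number 6. No named gene past the threshold changed direction in any of these settings. Over all 17767 genes, 1982 were higher and 2033 lower at 10 µM, against 3326 and 3498 with the replicate block, 3633 and 3761 with array weights, and 347 and 252 without number 8. The median of all genes moved by at most 0.04 under the other scalings. With 3 libraries per group and steps of 0.1 from a value of 10 up, differences of about 0.1 in abundant genes are at the limit of the values.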
